A study of Mus musculus with 12 samples.

Results

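The genes examined here were 9 Toll-like receptors and their shared adaptor Myd88, in the colon of mice with colitis induced by dextran sulfate sodium (DSS) and given ursolic acid (UA, a plant triterpenoid) early, late or not at all. They were taken by symbol from the count tables, 10 of 54532 genes listed, and all 10 were among the 17658 genes that passed the low-count filter and were tested. The receptors were Tlr1, Tlr2, Tlr4, Tlr5 and Tlr6 of the cell surface and Tlr3, Tlr7, Tlr9 and Tlr13 of the endosome. The study sequenced colon RNA from 12 male C57BL/6 mice, 3 in each of 4 groups. Each group held 8 mice, and no rule beyond good RNA quality is given for the choice of the 3. The mice were 6 weeks old when they were obtained. The Con group drank no DSS and received the vehicle by gavage according to the methods, where the sample labels call it untreated. The DSS group drank water that held 3% DSS (w/v) over 5 days and received the vehicle by gavage. The UA+DSS group received the same DSS and UA at 200 mg/kg by gavage daily, begun 24 hours before DSS and continued for 7 days. The DSS+UA group received the same DSS and the same dose of UA, begun 3 days after DSS and continued for 4 days. The discussion of the study gives other durations of UA. Libraries carry the name of the group with a replicate number, so that DSS 2 is replicate 2 of the DSS group.

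Toll-like receptors are sensors of microbial molecules. Tlr2 pairs with Tlr1 to bind triacylated lipoproteins and with Tlr6 to bind diacylated ones, Tlr4 responds to lipopolysaccharide, and Tlr5 responds to flagellin. In the endosome, Tlr3 binds double-stranded RNA, Tlr7 single-stranded RNA, Tlr9 unmethylated CpG DNA and Tlr13, which mice have and humans lack, a sequence of bacterial ribosomal RNA. All but Tlr3 signal through Myd88, which recruits the IRAK kinases and activates NF-κB, while Tlr3 signals through Ticam1. The colon faces a dense bacterial flora, and the receptors are found there on epithelial cells and on the macrophages, neutrophils, dendritic cells and B cells of the mucosa.

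Promoter sequences were at hand for 8 of the 10 genes (Tlr4 and Tlr7 had none), from RefSeq on GRCm38.p6, as windows of 250 bases before to 50 bases after the start of transcription. They are shown for 4 genes on which the results turn, up to 20 bases after the start: Tlr2 and Tlr13, with the largest log2 fold changes between DSS and Con among surface and endosomal receptors (for Tlr2 with DSS 2 included, and Tlr6 without it), Tlr3, which differed in the other direction, and Myd88. Capitals mark matches, on either strand, to the κB consensus of NF-κB, to the core of the interferon-stimulated response element (GAAA, then any 2 bases, then GAAA) or to the core of PU.1, a factor of myeloid cells (GAGGAA).
Tlr2, chr3:83841589-83841858, - strand: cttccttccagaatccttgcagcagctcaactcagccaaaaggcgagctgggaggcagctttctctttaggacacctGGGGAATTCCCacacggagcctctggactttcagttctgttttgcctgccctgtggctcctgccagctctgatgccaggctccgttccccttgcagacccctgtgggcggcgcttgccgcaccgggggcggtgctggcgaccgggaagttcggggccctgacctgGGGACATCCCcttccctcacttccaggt
Tlr13, chrX:106143025-106143294, + strand: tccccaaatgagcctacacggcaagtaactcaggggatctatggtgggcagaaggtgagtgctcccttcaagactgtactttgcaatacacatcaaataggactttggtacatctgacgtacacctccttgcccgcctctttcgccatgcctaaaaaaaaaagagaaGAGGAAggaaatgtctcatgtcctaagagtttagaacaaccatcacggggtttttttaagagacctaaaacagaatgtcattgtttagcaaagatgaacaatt
Tlr3, chr8:45410361-45410630, - strand: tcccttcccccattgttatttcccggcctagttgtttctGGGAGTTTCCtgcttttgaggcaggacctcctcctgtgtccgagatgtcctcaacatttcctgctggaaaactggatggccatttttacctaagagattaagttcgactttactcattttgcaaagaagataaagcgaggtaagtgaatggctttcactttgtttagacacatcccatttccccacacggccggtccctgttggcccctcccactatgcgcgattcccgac
Myd88, chr9:119339999-119340268, - strand: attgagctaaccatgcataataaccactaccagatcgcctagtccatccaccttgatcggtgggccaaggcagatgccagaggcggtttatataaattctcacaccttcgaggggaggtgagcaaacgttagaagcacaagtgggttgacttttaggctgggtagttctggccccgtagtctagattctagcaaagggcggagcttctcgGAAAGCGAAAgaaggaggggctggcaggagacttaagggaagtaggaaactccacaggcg
The Tlr2 window held 3 κB matches, beginning at positions -173, -172 and -8 from the start, of which the first pair overlap. The Tlr3 window held 1 κB match, at -211. In the Myd88 window the match was to the interferon element, at -40, and in the Tlr13 window it was to PU.1, at -83. Of all 32851 windows of this length, 8.46% held a κB match, 3.44% the interferon core and 28.3% the PU.1 core. Among the windows not shown, those of Tlr1 and Tlr9 held PU.1 matches and 1 of Tlr6 held 2 interferon cores. These are matches of letters, and binding was not measured.

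The deposited values were whole-number read counts per gene, with 15566216 to 19498383 counts per library (median 18569669). They are given as CPM (counts brought to 1 common library size with TMM factors), with the mean ± SD of 3 libraries. Groups were compared in a model of all 12 libraries by the quasi-likelihood test of edgeR, and log2 fold changes are given with their standard error (SE). Every adjusted p below is a Benjamini-Hochberg value over the 17658 genes, and a gene is called changed under 0.05. DSS 2 stood apart. Its summed level of 7 neutrophil markers was 16880 CPM, against 871 and 974 CPM in the other libraries of its group, so values without it are given beside the results. A colon position score, the mean log2 CPM of Hox genes of the distal colon minus that of Hox genes of the proximal colon, was 5.52, -3.02 and -1.83 in Con and 0.37 to 3.10 in DSS. It was -5.70 to -4.16 in UA+DSS and 4.12 to 5.06 in DSS+UA.

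Tlr1 had the highest mean level per length of the 9 receptors in Con, UA+DSS and DSS+UA, with Tlr2 close to it in UA+DSS. Levels were compared between genes as CPM per kilobase of annotated exon (CPM/kb). In Con the order was Tlr1 (28.8 ± 8.84 CPM/kb), Myd88 (13.3 ± 0.43), Tlr3 (8.87 ± 2.55), Tlr2 (5.76 ± 1.40), Tlr4 (4.54 ± 1.33), Tlr5 (0.863 ± 0.181), Tlr6 (0.638 ± 0.095), Tlr7 (0.631 ± 0.347), Tlr13 (0.604 ± 0.128) and Tlr9 (0.192 ± 0.170, SD, n = 3). The libraries of neighbours in this order did not overlap between Tlr1 and Myd88, Myd88 and Tlr3, Tlr4 and Tlr5, and Tlr13 and Tlr9, and overlapped between the other neighbours. In DSS the order began with Tlr2 (35.7 ± 45.8 CPM/kb), Myd88 (31.1 ± 19.6), Tlr1 (19.1 ± 0.31) and Tlr13 (13.7 ± 11.1), whose libraries overlapped from one to the next. Tlr2 came first through DSS 2 (88.6 CPM/kb), while Tlr1 was above it in DSS 1 (18.7 against 9.62 CPM/kb) and DSS 3 (19.2 against 8.75 CPM/kb). Tlr13, the ninth of the 10 in Con, was thus the fourth in DSS, and it was the sixth in both UA+DSS (1.64 ± 0.65 CPM/kb) and DSS+UA (2.25 ± 0.27 CPM/kb). Tlr5 was the last in DSS (0.686 ± 0.302 CPM/kb) and in DSS+UA (0.220 ± 0.069 CPM/kb). In UA+DSS the libraries of Tlr1 (20.6 ± 3.29 CPM/kb) and Tlr2 (20.2 ± 8.35 CPM/kb) overlapped. There Tlr2 was above Tlr1 in UA+DSS 2 (26.4 against 19.6 CPM/kb).

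The summed level of the 9 receptors was 50.8 ± 5.12 CPM/kb in Con, 89.7 ± 60.1 in DSS, 64.0 ± 14.9 in UA+DSS and 55.0 ± 6.99 in DSS+UA. In DSS it was 159 CPM/kb in DSS 2, against 55.1 and 54.9 CPM/kb in DSS 1 and DSS 3, which lay just above the highest Con library (54.2 CPM/kb). The 5 surface receptors held most of it in every library, 75.6% to 85.4% in Con, 66.1% to 78.9% in DSS, 77.6% to 79.4% in UA+DSS and 81.3% to 82.9% in DSS+UA. Within the endosomal receptors the make-up differed more. Tlr7, Tlr9 and Tlr13 together held 1.33% to 4.13% of the sum in Con and 18.7% to 25.9% in DSS, with 3.99% to 6.26% in UA+DSS and 6.69% to 8.02% in DSS+UA. Tlr3 held 11.4% to 21.2% in Con, 1.96% to 11.1% in DSS, 14.3% to 18.3% in UA+DSS and 9.89% to 12.0% in DSS+UA. Tlr1 alone held 45.3% to 70.0% in Con and 12.1% to 35.0% in DSS. These shares are a description of the libraries, with no test.

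**Figure D1:**
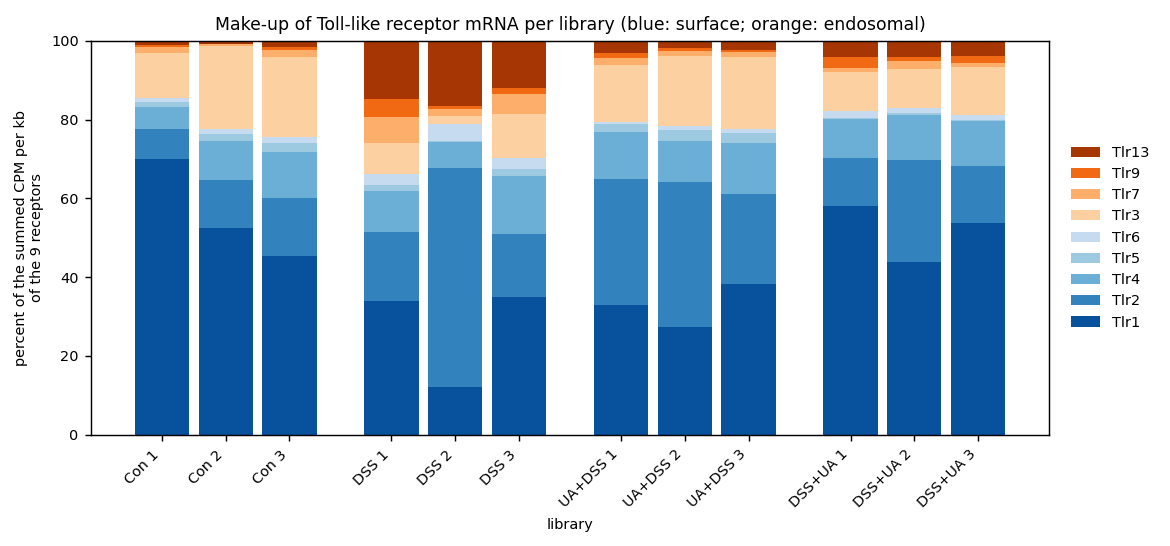
Bars are the 12 libraries by group, and segments are the percent of the summed CPM per kilobase of the 9 receptors held by each (blue, surface; orange, endosomal). The Tlr13 segment is the widest in the 3 DSS libraries, at 11.9% to 16.7% against 0.894% to 1.63% in Con, and Tlr2 takes 55.7% of DSS 2.

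In DSS against Con, which compares mice with colitis and mice without it, 9 of the 10 were called changed, 7 of them higher and 2 lower (background: 26.5% of all tested genes were called, 13.9% higher and 12.6% lower). Tlr13, Tlr9, Tlr2, Tlr6, Tlr7, Myd88 and Tlr4 rose, by log2 fold changes of 4.50 down to 0.84, and Tlr1 and Tlr3 fell. Tlr5 did not pass the test. The median log2 fold change of the 10 genes was 1.75, and that of all tested genes was -0.03. For 9 of the 10 the libraries of both groups did not overlap, as for 41.3% of all tested genes. Without DSS 2, 5 of the 10 were called, Tlr6, Tlr7, Tlr9, Tlr13 and Myd88, all higher (19.2% of all tested genes), and the median was 0.65.

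Among the surface receptors, Tlr2 (chr3:83836272-83841767 on GRCm38) was at 12.5, 19.8 and 19.8 CPM in Con and at 29.0, 267 and 26.4 CPM in DSS. All DSS libraries were above all Con libraries, but DSS 2 was far above the rest, and the group mean of 107 ± 138 CPM rests on it. Its log2 fold change was 2.63 (SE 0.85, adjusted p = 0.0427), and without DSS 2 it was 0.67 (adjusted p = 0.305). The call was kept without DSS 1, DSS 3 or DSS+UA 2, and lost without any other library (adjusted p from 0.0545 to 0.305). Tlr6 (chr5:64952031-64960097), the partner of Tlr2 for diacylated lipoproteins, was at 2.02, 2.39 and 2.73 CPM in Con and 5.68, 26.2 and 5.49 CPM in DSS. DSS 2 was again the highest, and DSS 1 and DSS 3 lay close together above Con. Tlr6 rose by a log2 fold change of 2.39 (SE 0.54, adjusted p = 0.0099), or 1.23 without DSS 2 (adjusted p = 0.0143), and stayed called whichever library was left out. Tlr4 (chr4:66827584-66930284), the lipopolysaccharide receptor, was at 16.7, 29.5 and 29.5 CPM in Con and 32.4, 57.6 and 45.1 CPM in DSS. The groups did not overlap, with a gap of under 3 CPM between the highest Con library and the lowest DSS library. Its log2 fold change was 0.84 (SE 0.27, adjusted p = 0.0429), a call that was kept only without DSS 1, DSS+UA 1 or DSS+UA 2 (adjusted p from 0.051 to 0.133 without each other library).

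Tlr1 (chr5:64924679-64933563), the partner of Tlr2 for triacylated lipoproteins, was at 127, 93.4 and 68.1 CPM in Con and 62.6, 64.4 and 64.3 CPM in DSS. The DSS libraries lay within 2 CPM of each other, just below the lowest Con library. Tlr1 fell by 0.59 on the log2 scale (SE 0.20, adjusted p = 0.0487), and the call was kept only without Con 3 (adjusted p from 0.0546 to 0.161 without each of the other 11 libraries). Tlr1 and Tlr6 lie close together on chromosome 5 and are similar in sequence. Of the stretches of 50 bases in their transcripts, 15.4% of those of Tlr1 and 12.3% of those of Tlr6 were found in other genes, mostly in each other. Their counts are uncertain for this reason, by an amount that was not measured. Tlr1 was at 28.8 and Tlr6 at 0.638 CPM/kb in Con, so misplaced reads would weigh more on Tlr6. Tlr5 (chr1:182954788-182976044), the flagellin receptor, was at 3.15, 4.44 and 4.81 CPM in Con and 3.61, 1.70 and 4.54 CPM in DSS. The groups overlapped, and its log2 fold change was -0.33 (SE 0.40, adjusted p = 0.557).

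Among the endosomal receptors, Tlr13 (chrX:106143204-106160493), the receptor for bacterial ribosomal RNA, was at 2.59, 2.05 and 3.15 CPM in Con and 35.1, 114 and 28.1 CPM in DSS. Every DSS library was far above every Con library. Tlr13 rose by a log2 fold change of 4.50 (SE 0.54, adjusted p = 0.00133), or 3.60 without DSS 2 (adjusted p = 0.000342), and was called under all 21 alternatives (adjusted p up to 0.0214). Tlr7 (chrX:167304929-167330558), the receptor for single-stranded RNA, was at 3.52, 0.943 and 3.26 CPM in Con and 14.6, 11.4 and 11.6 CPM in DSS. Here DSS 2 was not the highest, and the 3 DSS libraries were alike. The log2 fold change was 2.28 (SE 0.51, adjusted p = 0.00963), called under all 21 alternatives (adjusted p up to 0.036). Tlr9 (chr9:106222598-106226883), the receptor for CpG DNA, was at 0.879, 0 and 1.12 CPM in Con and 8.80, 3.91 and 3.06 CPM in DSS. Con 2 held 0 counts, which at its depth allows up to 0.166 CPM, and the other Con libraries held 17 and 21 counts. The log2 fold change was 2.96 (SE 0.90, adjusted p = 0.0329), and the call was lost without Con 1 or DSS 1 (adjusted p 0.0658 and 0.104).

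Tlr3 (chr8:45395665-45411080), the receptor for double-stranded RNA, went the other way, from 32.3, 58.8 and 47.4 CPM in Con to 23.0, 16.2 and 31.8 CPM in DSS. The highest DSS library lay just below Con 1, the lowest Con library. Tlr3 fell by 0.96 on the log2 scale (SE 0.28, adjusted p = 0.0271), and the call was lost without Con 2, Con 3, DSS 1 or DSS 2 (adjusted p from 0.0557 to 0.105). An antisense gene, Gm45542, shares 7.32% of its exon bases and held 0 counts in all libraries.

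Myd88 (chr9:119335934-119341411), the adaptor, was at 33.6, 35.6 and 33.7 CPM in Con and 58.2, 138 and 44.5 CPM in DSS. The Con libraries were within 2 CPM of each other, and each DSS library was higher. Myd88 rose by a log2 fold change of 1.22 (SE 0.33, adjusted p = 0.0197), or 0.58 without DSS 2 (adjusted p = 0.0218), and the call was lost without any 1 of the Con libraries (adjusted p from 0.0522 to 0.054). Of its exon bases, 11.3% overlap Acaa1a on the other strand, and the use of strand in the counting is not given in the sources used here. Acaa1a, an enzyme of peroxisomal fatty acid oxidation, fell by 0.69 on the log2 scale in the same comparison (SE 0.21, adjusted p = 0.0306).

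**Figure D2:**
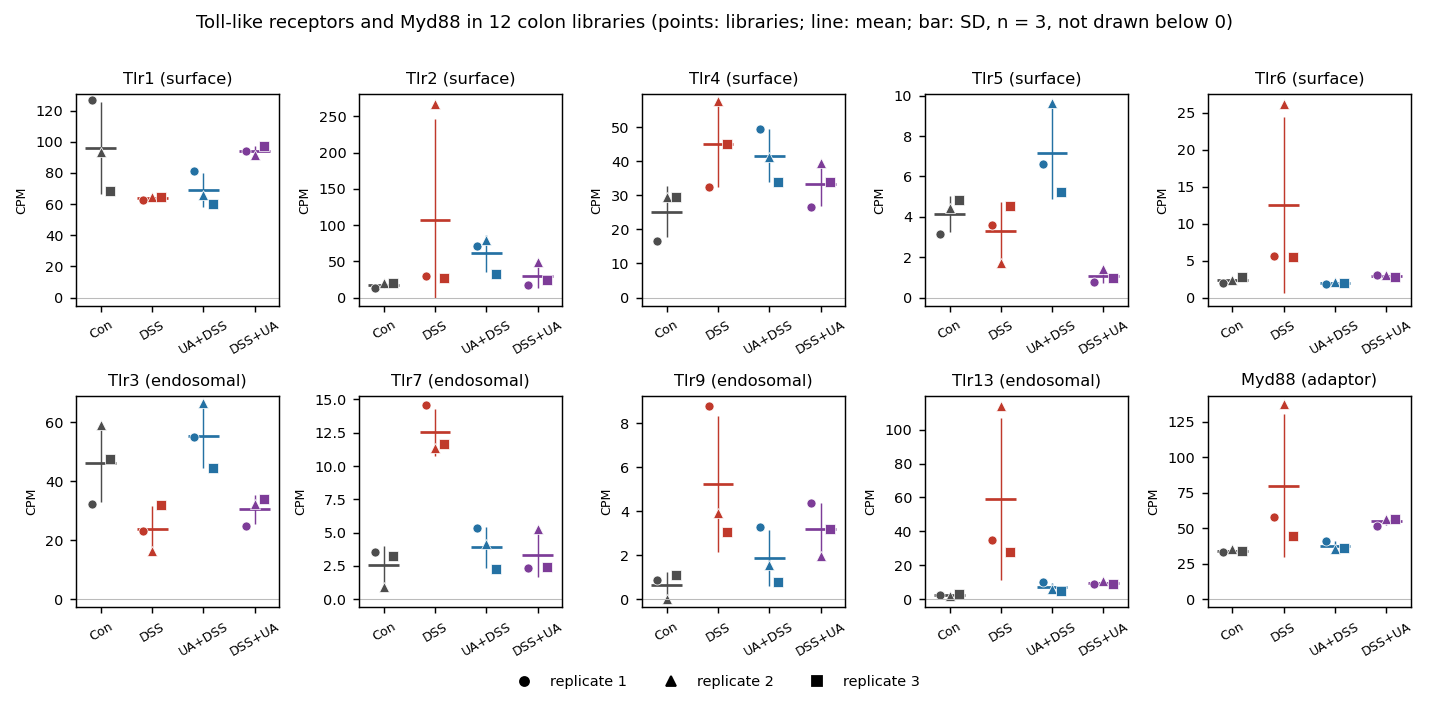
Each panel plots the CPM of 1 gene in the 12 libraries by group, with markers for the replicate number, a line at the mean and a bar for the SD of 3 libraries. DSS 2 (triangle) is far above the other DSS libraries for Tlr2 (267 CPM), Tlr6 (26.2 CPM), Tlr13 (114 CPM) and Myd88 (138 CPM), and not for Tlr7 (11.4 CPM) or Tlr9 (3.91 CPM).

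Marker genes of several cell types also differed between Con and DSS (background: 26.5% of all tested genes called, 13.9% higher and 12.6% lower). The summed level of 10 macrophage and monocyte markers was 184 to 494 CPM in Con and 1314 to 2364 CPM in DSS, with 8 of the 10 called higher. That of 7 neutrophil markers was 10.2 to 115 CPM in Con and 871 to 16880 CPM in DSS, with 6 of the 7 called higher. No marker of either list was at 0 in every library of a group, and 4 of the 7 neutrophil markers were at 0 in some Con library. The 5 B cell markers summed to 13.4 to 83.2 CPM in Con and 57.7 to 283 CPM in DSS. These sums overlapped, with 1 of the 5 called higher, and were highest in DSS 1. That library was the highest of its group in Tlr9, and also in the macrophage and dendritic cell markers. The 6 dendritic cell markers summed to 12.6 to 18.9 CPM in Con and 30.5 to 73.4 CPM in DSS. The 8 markers of the colon epithelium summed to 9075 to 22536 CPM in Con and 4787 to 10526 CPM in DSS. Their sums overlapped, and 2 of the 8 were called lower, about as often as all tested genes were called. The 5 T cell markers summed to 10.9 to 19.8 CPM in Con and 29.5 to 83.4 CPM in DSS, the 5 fibroblast markers to 537 to 861 and 1713 to 3317 CPM, and the 3 markers of endothelium to 91.8 to 138 and 169 to 285 CPM, each without overlap. Smooth muscle and plasmacytoid dendritic cell markers overlapped between Con and DSS, with 0 of 4 called in each list. The part of these lists in the results was not tested. In RNA of whole tissue, fewer cells of a type and less RNA per cell cannot be told apart.

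**Figure D3:**
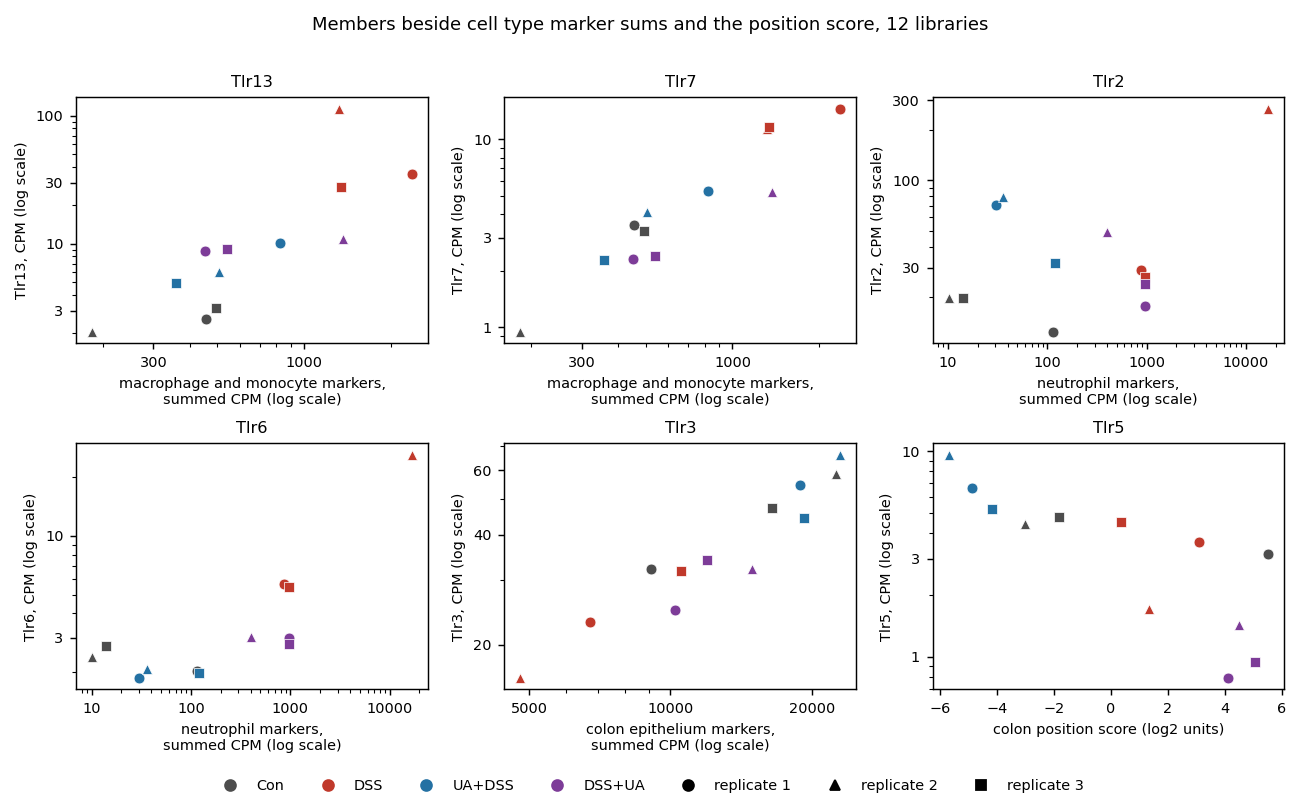
Points are the 12 libraries, with 1 gene's CPM on the log-scaled y axis and, on the x axis, the summed CPM of a marker list (log scale) or the colon position score (log2 units). The DSS libraries are the highest for Tlr13 and Tlr7, though DSS+UA 2 has macrophage and monocyte markers (1366 CPM) within the range of DSS. DSS 2 stands alone for Tlr2 and Tlr6 at 16880 CPM of neutrophil markers. Tlr3 is lowest where epithelial markers are lowest, and Tlr5 is lowest in the 3 DSS+UA libraries with scores of 4.12 to 5.06.

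In UA+DSS against DSS, which compares early UA with colitis alone, 5 of the 10 genes were called, 4 lower and 1 higher (background: 18.7% of all tested genes, 10.5% lower and 8.21% higher). Tlr13, Tlr6, Tlr7 and Myd88 were lower in UA+DSS, and Tlr3 was higher. The median log2 fold change of the 10 was -0.96, and that of all tested genes -0.02. Groups did not overlap for 6 of the 10, as for 42.8% of all tested genes. The DSS libraries are those of the comparison with Con, so both comparisons share them. Without DSS 2, 3 of the 10 were called, Tlr6, Tlr3 and Tlr13 (10% of all tested genes), and the median was -0.18, with 5 genes higher and 5 lower.

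Tlr13 was at 10.2, 6.00 and 4.94 CPM in UA+DSS, above all Con libraries and below all DSS libraries. It fell by 3.07 on the log2 scale against DSS (SE 0.51, adjusted p = 0.00935), or by 2.17 without DSS 2 (adjusted p = 0.0078). Tlr6 was at 1.86, 2.06 and 1.97 CPM, the narrowest group of this gene, with every library below every DSS library. It fell by 2.66 (SE 0.55, adjusted p = 0.0134), or by 1.51 without DSS 2 (adjusted p = 0.0163). Tlr3 was at 54.9, 66.3 and 44.6 CPM and was higher than in DSS by a log2 fold change of 1.22 (SE 0.28, adjusted p = 0.017). The calls of these 3 genes were lost without UA+DSS 2 only (adjusted p = 0.0533 for Tlr13, 0.0652 for Tlr6 and 0.0799 for Tlr3). Tlr7 was at 5.32, 4.12 and 2.29 CPM and fell by 1.68 (SE 0.50, adjusted p = 0.0392), a call lost without DSS+UA 3 or any 1 of the DSS or UA+DSS libraries (adjusted p up to 0.126). Myd88 was at 41.2, 35.4 and 36.3 CPM and fell by 1.09 (SE 0.33, adjusted p = 0.0396), or by 0.45 without DSS 2 (adjusted p = 0.0736). Its call was kept only without Con 1, DSS 1, DSS 3 or DSS+UA 2.

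The other 5 genes did not pass the test in this comparison. Tlr2 was at 70.8, 79.5 and 32.2 CPM in UA+DSS, above DSS 1 and DSS 3 and below DSS 2. Its log2 fold change was -0.82 (SE 0.80, adjusted p = 0.508) and turned to 1.13 without DSS 2 (adjusted p = 0.142). Tlr4 was at 49.5, 41.4 and 34.0 CPM, within the range of DSS, with a log2 fold change of -0.11 (SE 0.27, adjusted p = 0.806). Tlr1, at 81.2, 65.5 and 59.97 CPM, also overlapped DSS (log2 fold change 0.11, SE 0.20, adjusted p = 0.736). Tlr5 was at 6.61, 9.62 and 5.21 CPM, above all DSS libraries (log2 fold change 1.12, SE 0.40, adjusted p = 0.0705). Tlr9 was at 3.27, 1.56 and 0.798 CPM and overlapped DSS (log2 fold change -1.49, SE 0.83, adjusted p = 0.232).

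In DSS+UA against DSS, which compares late UA with colitis alone, 4 of the 10 genes were called, all lower (background: 7.54% of all tested genes, 5.0% lower and 2.54% higher). They were Tlr13, Tlr6, Tlr7 and Tlr5. The median log2 fold change of the 10 was -1.18, and that of all tested genes 0.02. With library sizes alone in place of TMM factors the median of all genes moved by -0.14, and the same 10 genes had the same signs. Groups did not overlap for 5 of the 10, as for 34.7% of all tested genes. Without DSS 2, 2 of the 10 were called, Tlr5 and Tlr13 (2.19% of all tested genes), and the median was -0.54, with 4 genes higher and 6 lower.

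Tlr13 was at 8.85, 11.01 and 9.15 CPM in DSS+UA, between all Con and all DSS libraries. It fell by 2.61 on the log2 scale (SE 0.49, adjusted p = 0.0202), or by 1.69 without DSS 2 (adjusted p = 0.025), and the call was lost without DSS+UA 2 or DSS+UA 3 (adjusted p 0.0683 and 0.0981). Tlr5 was at 0.790, 1.42 and 0.942 CPM, with 15 to 23 counts per library, and lay below every library of the other groups. It fell by 1.64 (SE 0.42, adjusted p = 0.0424), and the call was kept only without Con 1 or DSS 2 (adjusted p from 0.0509 to 0.142 without each other library). Tlr6 was at 3.002, 3.03 and 2.77 CPM and fell by 2.08 (SE 0.53, adjusted p = 0.0422), or by 0.91 without DSS 2 (adjusted p = 0.107). Its call was kept only without Con 1, DSS 1 or DSS 3. Tlr7 was at 2.32, 5.26 and 2.38 CPM and fell by 1.92 (SE 0.50, adjusted p = 0.045), a call kept only without Con 1 or Con 2.

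Of the genes that did not pass the test, Tlr1 was at 93.9, 91.3 and 97.4 CPM, above all DSS libraries (log2 fold change 0.56, SE 0.20, adjusted p = 0.0936). Myd88 was at 51.9, 56.6 and 56.3 CPM, within the range of DSS, with a log2 fold change of -0.55 (SE 0.32, adjusted p = 0.278) that turned to 0.11 without DSS 2. Tlr2 was at 17.8, 48.8 and 24.01 CPM, with a log2 fold change of -1.83 (SE 0.82, adjusted p = 0.164) that turned to 0.14 without DSS 2. Tlr4 was at 26.5, 39.3 and 33.9 CPM, Tlr3 at 24.9, 32.4 and 34.0 CPM and Tlr9 at 4.37, 1.98 and 3.22 CPM. These 3 genes overlapped DSS, with adjusted p from 0.302 to 0.581.

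**Figure D4:**
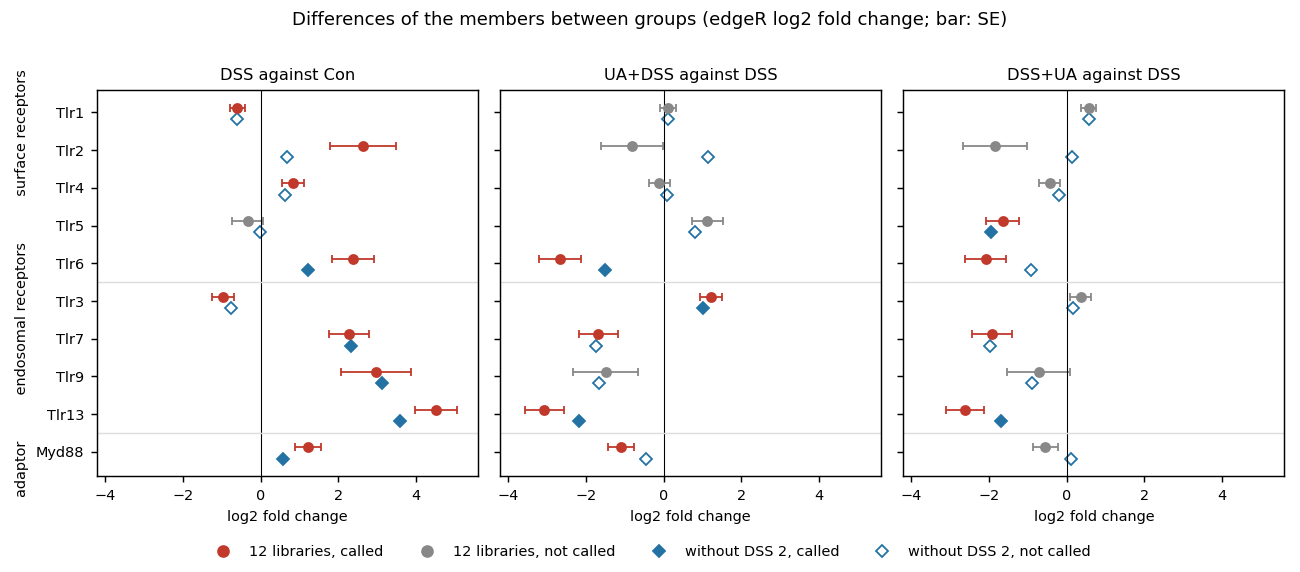
Log2 fold changes of the 10 genes in the 3 comparisons that involve DSS, with all 12 libraries (circles, bar for the SE, red where called) and without DSS 2 (diamonds, filled where called). Tlr13 lies farthest from 0 in DSS against Con (4.50) and UA+DSS against DSS (-3.07), and the values of Tlr2 move the most without DSS 2, from 2.63 to 0.67 in DSS against Con.

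Beside both comparisons with DSS, some marker lists differed as well (background: 18.7% and 7.54% of all tested genes called). The macrophage and monocyte markers summed to 359 to 826 CPM in UA+DSS, with 6 of 10 called lower than in DSS, and to 452 to 1366 CPM in DSS+UA, with 1 of 10 called lower. The neutrophil markers summed to 30.2 to 120 CPM in UA+DSS, with 7 of 7 called lower, and to 403 to 969 CPM in DSS+UA, with 1 of 7 called lower. The epithelial markers summed to 18850 to 23016 CPM in UA+DSS, with 3 of 8 called higher, and to 10250 to 14923 CPM in DSS+UA, with 1 of 8 called higher. The macrophage, neutrophil and epithelial sums lay apart from DSS in UA+DSS and overlapped DSS in DSS+UA. B cell markers were called lower for 3 of 5 in UA+DSS and 0 of 5 in DSS+UA, dendritic cell markers for 0 of 6 and 1 of 6. Of plasmacytoid dendritic cell markers 1 of 4 was called lower in each, with 0 of 5 T cell and 0 of 4 smooth muscle markers called in either. Fibroblast markers summed to 421 to 932 CPM in UA+DSS and 547 to 1182 CPM in DSS+UA, and those of endothelium to 79.9 to 98.03 and 63.5 to 70.6 CPM, all below every DSS library. The part of these lists was not tested here either. The position score did not overlap between the DSS, UA+DSS and DSS+UA groups. With the score as a covariate, 0 of the 10 genes were called in either comparison with DSS (0.0170% and 1.13% of all tested genes), where 8 were called in DSS against Con (30.5% of all tested genes), all but Tlr5 and Tlr9. The log2 fold changes with the score were estimated between groups whose scores do not overlap, and are given first for the genes called without it. In UA+DSS against DSS, that of Tlr13 was -3.10, that of Tlr6 -3.00 and that of Myd88 -1.13, while those of Tlr3 and Tlr7 were smaller, 0.59 and -0.99. Those of the genes not called were -1.57 (Tlr2), -0.81 (Tlr4), 0.53 (Tlr1), 0.60 (Tlr5) and -0.39 (Tlr9). Tlr2, Tlr4 and Tlr1 were farther from 0 with the score than without it, and Tlr5 and Tlr9 nearer. For DSS+UA against DSS, Tlr13 was at -2.60, Tlr7 at -2.21, Tlr6 at -1.92 and Tlr5 at -1.41. The genes not called there were at 0.37 (Tlr1), -1.48 (Tlr2), -0.10 (Tlr4), 0.66 (Tlr3), -1.11 (Tlr9) and -0.53 (Myd88). The position of the tissue and the treatment cannot be told apart where the score does not overlap between groups.

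The UA groups were also compared with Con, where the members were called about as often as all tested genes. In UA+DSS against Con, 0 of the 10 were called by edgeR, DESeq2 or limma-voom (background: 0.00566% of all tested genes), and 3 had an unadjusted p under 0.05, Tlr13, Tlr4 and Tlr1. Tlr13 had a log2 fold change of 1.43 (SE 0.50, adjusted p = 0.329), with every UA+DSS library above every Con library. Tlr4 (0.72, SE 0.27, adjusted p = 0.347) and Tlr2 (1.81, SE 0.82, adjusted p = 0.415) were likewise higher in 3 of 3 UA+DSS libraries than in any Con library, and so was Tlr5 (0.79, SE 0.40, adjusted p = 0.451). Libraries lay apart for 4 of the 10 here, as for 20.6% of all tested genes. In DSS+UA against Con, 2 of the 10 were called (background: 18.1% of all tested genes, 9.13% higher and 8.95% lower), with Tlr13 higher by a log2 fold change of 1.89 (SE 0.50, adjusted p = 0.027) and Tlr5 lower (log2 fold change -1.97, SE 0.42, adjusted p = 0.0127). The call of Tlr13 was lost without any 1 of the Con or DSS+UA libraries (adjusted p from 0.0547 to 0.0803), and that of Tlr5 without DSS+UA 3 (adjusted p = 0.0566). The libraries of DSS+UA and Con lay apart for 5 of the 10, Tlr5, Tlr6, Tlr9, Tlr13 and Myd88, as for 38.9% of all tested genes.

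The UA+DSS and DSS+UA groups differed in Tlr5. In UA+DSS against DSS+UA it was the only 1 of the 10 called (background: 16.8% of all tested genes, 7.54% higher and 9.23% lower in UA+DSS), higher in UA+DSS by a log2 fold change of 2.76 (SE 0.43, adjusted p = 0.00739), and it stayed called whichever library was left out. With the position score as a covariate its log2 fold change was 2.01 (adjusted p = 0.344). The score did not overlap between UA+DSS and DSS+UA, so the position of the tissue and the time of UA cannot be told apart. Over the 12 libraries Tlr5 was highest in UA+DSS 2 (9.62 CPM), the library with the lowest score (-5.70), and lowest in DSS+UA 1 (0.790 CPM), with a score of 4.12. Con 1, whose score of 5.52 was the highest of all, had the lowest Tlr5 of its group, 3.15 CPM, and lay above the 3 DSS+UA libraries. Tlr3 was also higher in UA+DSS than in DSS+UA in 3 of 3 libraries, but did not pass the test (log2 fold change 0.86, SE 0.28, adjusted p = 0.0545). Both groups of libraries lay apart for 5 of the 10 genes, as for 45.3% of all tested genes.

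Between the surface receptors that form pairs, the balance of Tlr2 to Tlr6 was at its highest in UA+DSS. The ratio of their levels per kilobase was 7.64, 10.2 and 8.995 in Con, 6.32, 12.6 and 5.93 in DSS, 7.33, 19.9 and 10.7 in DSS+UA, and 47.0, 47.7 and 20.3 in UA+DSS. The UA+DSS libraries were thus above all others, with UA+DSS 3 close to DSS+UA 2. The ratio of Tlr2 to Tlr1 was 0.109 to 0.323 in Con, 0.515, 4.60 and 0.455 in DSS, 0.967, 1.35 and 0.596 in UA+DSS and 0.210 to 0.593 in DSS+UA. Among endosomal receptors, the ratio of Tlr13 to Tlr3 was 0.0422 to 0.0968 in Con, 1.84, 8.51 and 1.07 in DSS, 0.109 to 0.225 in UA+DSS and 0.325 to 0.430 in DSS+UA. The 4 groups did not overlap in this ratio, which sets the endosomal receptor that rose most in DSS against the 1 that fell. That Con and DSS lie apart in it follows from this choice of genes. The ratios of Tlr2 to Tlr4 and of Tlr7 to Tlr13 overlapped between some groups. The ratios are a description, with no test.

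The counts by class stand beside 26.5%, 18.7% and 7.54% of all tested genes called in the 3 comparisons that involve DSS. In DSS against Con, 4 of 5 surface receptors (3 higher, 1 lower) and 4 of 4 endosomal receptors (3 higher, 1 lower) were called, with median log2 fold changes of 0.84 and 2.62. Between UA+DSS and DSS, 1 of 5 surface and 3 of 4 endosomal receptors were called, with medians of -0.11 and -1.59. In DSS+UA against DSS, 2 of 5 and 2 of 4 were called, with medians of -1.64 and -1.32. Without DSS 2, the call of Tlr6 alone was left among surface receptors in DSS against Con, with 3 of 4 endosomal receptors called and medians of 0.62 and 2.73. The medians of the surface receptors were then 0.12 in UA+DSS against DSS and -0.21 in DSS+UA against DSS, with 1 of 5 called in each. Those of the endosomal receptors were -1.71 and -1.29, with 2 and 1 of 4 called. The difference between the classes was not tested, and members of both classes differed in direction.

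For each gene, the tested genes with the most similar pattern over the 12 libraries were found by the root mean square difference (RMS) of log2 CPM, each gene centred on its own mean. Closest to Tlr13 were Csf2rb2 (RMS 0.260), a receptor subunit of myeloid cytokines, and Lrrc25 (0.274), where Tlr13 itself varied by an RMS of 1.59 about its mean. Closest to Tlr7 was Csf1r (0.312), the receptor of macrophage growth factors, and then Aoah (0.333), an enzyme that inactivates lipopolysaccharide. Closest to Tlr9 was Ccr6 (0.665), a chemokine receptor found on B cells, and then Prkcb (0.781), against an RMS of 1.55 for Tlr9 itself. Closest to Tlr3 was Mid2 (0.128). Closest to Tlr6 were Abtb2 (0.226) and Adora2a (0.255), to Tlr4 Ptprj (0.147) and Pik3cb (0.160), and to Myd88 Rap1b (0.155) and Flot1 (0.174). Closest to Tlr2 were Snx20 (0.567) and Grina (0.574), against its own RMS of 1.16. Tlr5 was closest to Itga7 (0.365), and Tlr1, which varied least (0.328), to Gm20604 and Abhd11 (both 0.122). Csf1r is also among the macrophage markers used here.

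The other genes of the pathway were taken as a list of 42, all of them tested. In DSS against Con 19 were called, 16 higher and 3 lower, in UA+DSS against DSS 12, 1 higher and 11 lower, and in DSS+UA against DSS 5, 1 higher and 4 lower (background: 26.5%, 18.7% and 7.54% of all tested genes). The medians of the list were 0.58, -0.39 and -0.26 on the log2 scale, and 0.46, -0.21 and -0.05 without DSS 2, where 15, 6 and 3 genes were called. Leaving out 1 library gave 10 to 20 calls in DSS against Con (10 without Con 2 and 11 without Con 3), 1 to 14 in UA+DSS against DSS (1 without UA+DSS 2, 3 without UA+DSS 3, 5 without UA+DSS 1 and 6 without DSS 2) and 0 to 9 in DSS+UA against DSS (0, 1 and 9 on leaving out DSS+UA 3, DSS+UA 2 or DSS 3). In DSS against Con 9 of the 19 calls were kept whichever library was left out, those of Tlr8, Lbp, Traf3, Nfkb1, Nfkb2, Rel, Rela, Irf5 and Sigirr. For UA+DSS against DSS the call of Lbp alone was kept so, and in DSS+UA against DSS none was.

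Of the 3 other receptors, Tlr8, an endosomal relative of Tlr7, was at 1.09, 0.499 and 1.18 CPM in Con, 13.1, 13.9 and 8.08 CPM in DSS, 3.08, 1.69 and 1.22 CPM in UA+DSS, against 0.790, 2.41 and 1.39 CPM in DSS+UA. The DSS libraries lay above all others. Tlr8 rose in DSS by a log2 fold change of 3.66 (SE 0.53, adjusted p = 0.00229) and was lower in UA+DSS (-2.55, adjusted p = 0.012) and DSS+UA (-2.94, adjusted p = 0.0146), calls lost without UA+DSS 2 (adjusted p = 0.0645) and DSS+UA 3 (adjusted p = 0.0929) respectively. Tlr11 and Tlr12, which sense profilin of protozoa, passed no test.

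Of 6 co-receptors, 3 rose in DSS (background: 13.9% of all tested genes called higher). They were Lbp, Cd14 and Cd180 (the last by a log2 fold change of 1.61, adjusted p = 0.0317, a call lost without Con 2, Con 3 or DSS 1). Lbp, the carrier of lipopolysaccharide, was at 3.64 to 3.72 CPM in Con, 38.1, 16.3 and 22.7 CPM in DSS, 5.58 to 7.92 CPM in UA+DSS and 7.06 to 9.65 CPM in DSS+UA. It rose in DSS by a log2 fold change of 2.80 (SE 0.31, adjusted p = 0.00117) and was lower in UA+DSS (-1.94, adjusted p = 0.00777) and DSS+UA (-1.61, adjusted p = 0.0183, a call lost without DSS+UA 2 or DSS+UA 3). Cd14, which hands lipopolysaccharide to Tlr4, was at 72.5, 35.0 and 33.2 CPM in Con and 148, 2519 and 136 CPM in DSS, with DSS 2 far above the rest. It rose in DSS (log2 fold change 4.32, SE 1.05, adjusted p = 0.0148), or 1.59 without DSS 2 (adjusted p = 0.0136), a call lost without Con 2 or Con 3 (adjusted p 0.0604 and 0.0513). In contrast, Ly96, the subunit that completes the Tlr4 receptor, was at 5.03 to 10.1 CPM in Con and 4.75 to 7.81 CPM in DSS (log2 fold change -0.01, SE 0.36, adjusted p = 0.988). Cd36, a scavenger receptor that aids Tlr2 and Tlr6, was lower in DSS+UA than in DSS (-1.44, adjusted p = 0.0147), at 14.0 to 16.0 CPM against 31.6 to 50.1 CPM, a call lost without DSS+UA 2 or DSS+UA 3. Of 3 chaperones of Toll-like receptors, 1 was called in DSS against Con, beside 26.5% of all tested genes. It was Cnpy3 (log2 fold change 0.45, SE 0.14, adjusted p = 0.0338, and 0.0718 without DSS 2). Unc93b1, which carries the endosomal receptors to the endosome, did not pass the test in DSS against Con (log2 fold change 0.69, SE 0.26, adjusted p = 0.0739).

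Adaptors and kinases were called in DSS against Con about as often as all tested genes (26.5%), 1 of 4 and 4 of 14. Of the 4 other adaptors, Ticam2, which links Tlr4 to Ticam1, was called higher in DSS (log2 fold change 2.17, SE 0.73, adjusted p = 0.047), a call kept only without Con 1 or DSS 3. Ticam1, the adaptor of Tlr3, did not pass the test in DSS against Con (log2 fold change -0.39, SE 0.24, adjusted p = 0.248). Of the 14 kinases and ubiquitin ligases, 2 were called higher in DSS, Traf3 (0.80, adjusted p = 0.0149) and Irak4 (0.56, adjusted p = 0.0308), and 2 lower, Tab1 (-0.80, adjusted p = 0.0219) and Ikbkg (-0.39, adjusted p = 0.033). Calls of Irak4, Tab1 and Ikbkg were lost without DSS 2 (adjusted p 0.0848, 0.0683 and 0.0551) and without others. Tbk1 and Tab2 had log2 fold changes of 0.01 and 0.02. In both comparisons of UA with DSS, 0 of the 14 were called by edgeR or limma-voom, with 1 and 3 at an unadjusted p under 0.05, and DESeq2 called 0 and 1.

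Of 7 transcription factors at the end of the pathway, 5 rose in DSS (background: 13.9% of all tested genes called higher). Among them were Irf5 (log2 fold change 2.08, SE 0.35, adjusted p = 0.00332), Rel (2.19, SE 0.38, adjusted p = 0.00372), Nfkb2 (1.63, SE 0.32, adjusted p = 0.00586) and Nfkb1 (0.80, SE 0.19, adjusted p = 0.011). Without DSS 2, Rel was at 1.58 and Nfkb2 at 1.02, both still called. Irf5, which Myd88 activates, was at 5.16 to 8.98 CPM in Con, 39.0, 41.0 and 17.5 CPM in DSS, 6.86 to 10.97 CPM in UA+DSS and 14.5 to 20.1 CPM in DSS+UA. Irf3 had a log2 fold change of -0.22 (adjusted p = 0.298). Irf7, which serves interferon induction, was at 60.2, 620 and 419 CPM in Con and 108, 66.4 and 44.2 CPM in DSS (log2 fold change -2.33, SE 0.78, adjusted p = 0.0501). Con 1 stood apart from the other Con libraries in Irf7, as it did in the position score.

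Of 5 inhibitors, 3 rose in DSS and 1 fell (background: 13.9% of all tested genes called higher and 12.6% lower). Irak3, which blocks the IRAK kinases in myeloid cells, was at 4.55, 9.48 and 11.2 CPM in Con and 19.5, 149 and 20.6 CPM in DSS (log2 fold change 2.90, SE 0.75, adjusted p = 0.0189), or 1.25 without DSS 2 (adjusted p = 0.043). Its call was lost without Con 1 or Con 2 (adjusted p 0.0617 and 0.0594). Nfkbia and Tnfaip3, which NF-κB itself induces, were at 62.0 to 71.0 and 33.5 to 54.1 CPM in Con and reached 891 and 742 CPM in DSS 2, with adjusted p of 0.0215 and 0.031 (0.0137 and 0.0859 without DSS 2, where the log2 fold changes went from 2.50 to 0.87 and from 2.70 to 0.65). Both calls were lost without any 1 of the Con libraries (adjusted p from 0.0567 to 0.0677 for Nfkbia and 0.0689 to 0.0916 for Tnfaip3). Sigirr, an inhibitory receptor of the family found on epithelium, went the other way, at 36.9, 31.1 and 32.1 CPM in Con and 19.96, 18.9 and 23.3 CPM in DSS. It fell by 0.69 (SE 0.15, adjusted p = 0.00817) and was higher in UA+DSS (0.60, adjusted p = 0.0203) and in DSS+UA (0.65, adjusted p = 0.031) than in DSS. These last calls were lost without DSS 2 (adjusted p 0.0663 and 0.0881), and without other libraries.

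**Figure D5:**
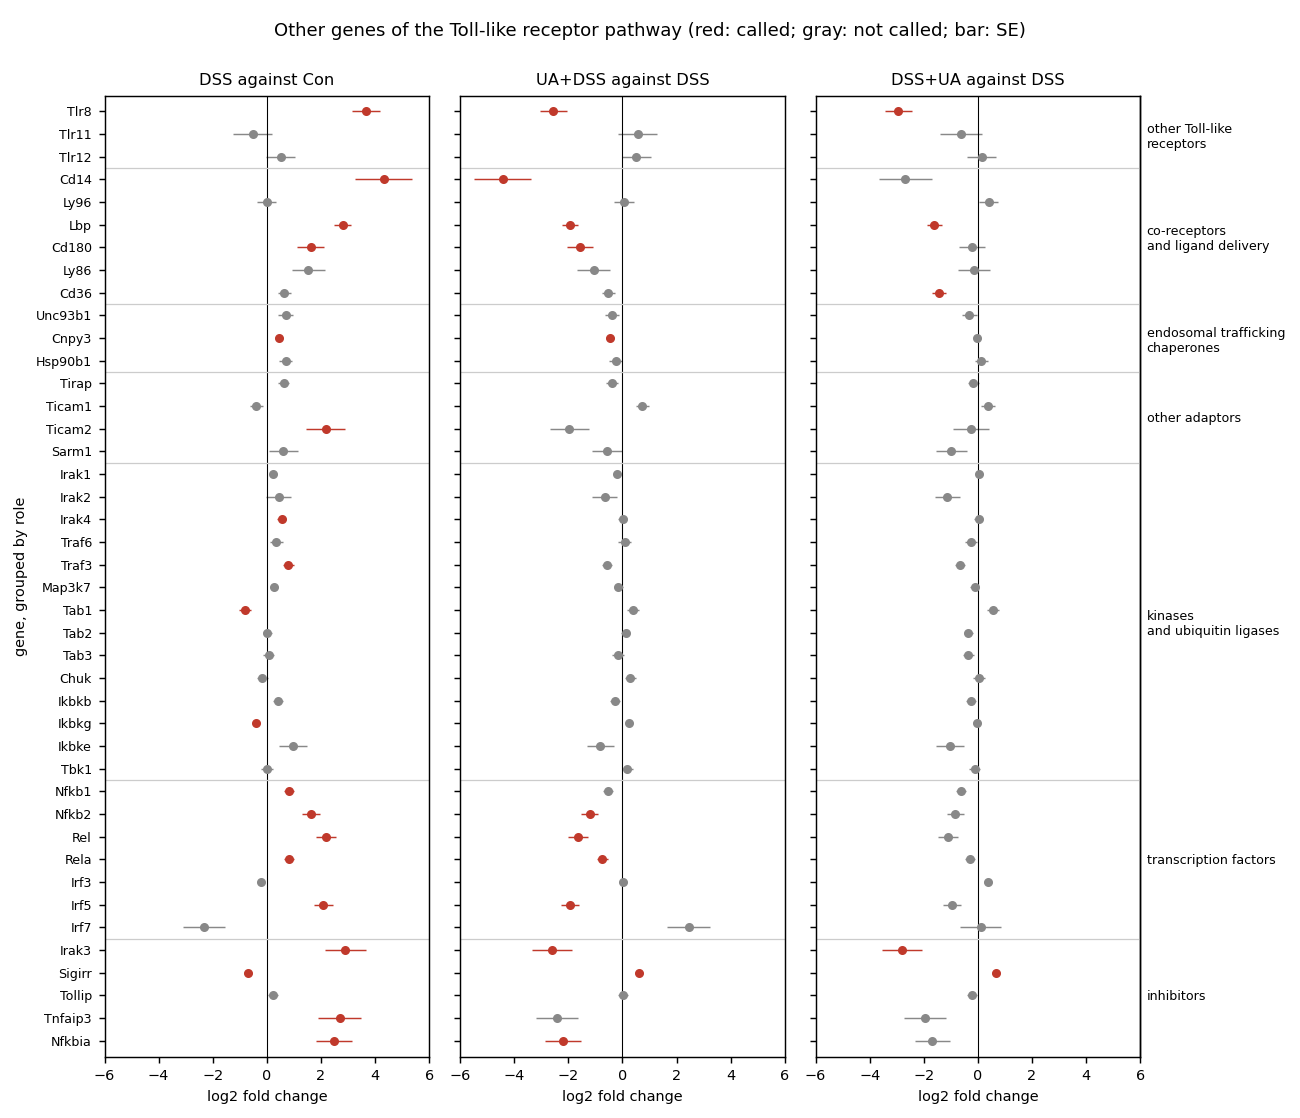
Log2 fold changes (points, with a bar for the SE, red where called) of the 42 other pathway genes, grouped by role, in the 3 comparisons that involve DSS. Red points are mostly right of 0 in DSS against Con (16 higher and 3 lower) and mostly left of 0 in UA+DSS against DSS (1 higher and 11 lower), and Sigirr is the only gene called higher in both comparisons with DSS.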

How the data were processed

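Total RNA of 12 colons was sequenced on the Illumina platform by the authors, who checked reads with FastQC, mapped them to GRCm38 and took read counts with HISAT2. The labels also name Cuffdiff. For versions, the annotation and strand, the sources used here give nothing. The methods name the RNeasy kit for the RNA and the labels Trizol. The deposited values are whole-number counts per Ensembl gene, not normalized. The low-count filter filterByExpr of edgeR 4.0.16 (R 4.3.3) left 17658 genes, which were scaled with TMM factors. The 4 groups entered a single quasi-likelihood fit (robust), with Benjamini-Hochberg adjustment and a threshold of 0.05. The fit was tested on simulated data. Groups and replicate numbers came from the labels, and the 3 colons of a group were taken as separate mice. The floor for 0 counts was 3 counts and covers counting error only, as depth limits the low genes.

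The 10 genes, the pathway, sensor and marker lists and the rule for named genes were chosen from general knowledge with earlier results of these data known. The rule names every member, the 2 genes most like each, small pathway groups gene by gene and, of the kinases, transcription factors and sensors, the 4 called with the smallest p in DSS against Con and the 2 not called with the largest. The results for 2 genes that it takes are not reported here. Gene positions and lengths came from GENCODE vM21 and promoters from RefSeq (GRCm38.p6). Figures were drawn with matplotlib 3.10.9. Alternatives were DESeq2 1.42.0, limma-voom (limma 3.58.1), scaling by upper quartiles or by library size, no filter, at least 10 counts in every library, fits of just 2 groups, a replicate block, the position score as a covariate and leaving out each library.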

Additional observations from a re-analysis of the deposited data

How the results depend on the processing

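Over the 10 genes and the 3 comparisons that involve DSS, 489 log2 fold changes under 21 alternatives kept their direction and their side of the threshold, 126 kept the direction and lost the call, 3 gained a call and 6 reversed. All 6 reversals came with 1 library left out, and the ranges that follow are over such fits. Between UA+DSS and DSS, Tlr2 ranged from -1.29 to 1.13 (above 0 without DSS 2), Tlr4 from -0.31 to 0.10 (above 0 without DSS 2, and at 0.013 without UA+DSS 3) and Tlr1 from -0.021 (without UA+DSS 1) to 0.20. Between DSS+UA and DSS, Tlr2 ranged from -2.40 to 0.14 and Myd88 from -0.82 to 0.11, both above 0 without DSS 2. With the position score as a covariate, the values for UA+DSS and DSS were -1.57 (Tlr2), -0.81 (Tlr4) and 0.53 (Tlr1). DESeq2 gave no adjusted p for Tlr2 in any comparison. Tlr9, with 0 counts in Con 2, was not in the fit that required at least 10 counts in every library. These values are left out.

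The members called without 1 library ranged from 4 to 8 for DSS and Con (9 with all, 4 without Con 1 or Con 2, 5 without Con 3 or DSS 2), from 0 to 5 for UA+DSS and DSS (5 with all, 0 without UA+DSS 2), from 0 to 5 for DSS+UA and DSS (4 with all, 0 without DSS+UA 2 or DSS+UA 3), from 0 to 3 for DSS+UA and Con (2 with all, 0 without DSS+UA 3) and from 1 to 3 for UA+DSS and DSS+UA (1 with all). The pathway genes called ranged from 10 to 20 for DSS and Con, 1 to 14 for UA+DSS and DSS and 0 to 9 for DSS+UA and DSS. When just the compared groups were fitted, which leaves fewer libraries to estimate the spread, 2, 3 and 1 members and 5, 5 and 2 pathway genes were called in the same order, and 4 members for UA+DSS and DSS+UA. With the position score as a covariate, 0 members were called in each comparison but that of DSS with Con, and 0 and 3 pathway genes for UA+DSS and DSS+UA against DSS. For DSS+UA, limma-voom called 2 members against DSS and 1 against Con. For UA+DSS and DSS+UA, 2 members were called with DESeq2, with library size alone, with upper-quartile factors and with at least 10 counts in every library. DESeq2 called 8 pathway genes for DSS+UA and DSS, and the fit without a filter 7 for UA+DSS and DSS and 3 for DSS+UA and DSS. Beyond the smaller fits, the cause of these differences was not tested.

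Replicate numbers were not taken as pairs in the main fit. Deviations of libraries with the same number correlated at -0.22 to 0.19 over 18 pairs (median 0.04), 5 of them over 0.1. Those with other numbers correlated at -0.29 to 0.24 over 36 pairs (median -0.02), 9 of them over 0.1. These correlations cannot settle whether same-numbered libraries shared a batch, which was not tested. With the replicate block 7 members were called for DSS and Con, 3 for UA+DSS and DSS, 1 for DSS+UA and DSS, 0 for UA+DSS and Con, 2 for DSS+UA and Con and 1 for UA+DSS and DSS+UA, and 17, 10 and 3 pathway genes in the comparisons that involve DSS. With 3 libraries a group, and Tlr9 at 0 to 183 counts and Tlr5 at 15 to 154, small differences of low genes were not detectable at this depth.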

Other observations

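Microbial sensors outside the Toll-like family also differed between groups. Of a list of 16 cytosolic and lectin-type pattern receptors, 14 were matched by symbol and tested. In DSS against Con 7 were called higher and 3 lower, in UA+DSS against DSS 3 higher and 6 lower, and in DSS+UA against DSS 1 higher and 2 lower (background: 26.5%, 18.7% and 7.54% of all tested genes called). The medians of the list were 1.46, -1.42 and -0.79 on the log2 scale. Without DSS 2 they were 0.95, -0.91 and -0.35, and edgeR called 9, 7 and 0 of the 14.

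The sensors that were called with the smallest p in DSS against Con were scavenger and C-type lectin receptors of myeloid cells. Marco, a scavenger receptor of macrophages, was at 0.0517, 0 and 0.160 CPM in Con and 5.48, 31.7 and 9.24 CPM in DSS, with 0.321 to 0.904 CPM in UA+DSS and 1.94 to 2.91 CPM in DSS+UA. Every DSS library was above every other library. Msr1, another scavenger receptor, was at 6.26, 1.72 and 7.11 CPM in Con and 55.5, 80.4 and 49.9 CPM in DSS. It rose by a log2 fold change of 3.62 (SE 0.58, edgeR adjusted p = 0.00322, and 0.00698 without DSS 2). Clec4d, a lectin receptor that pairs with Clec4e, was at 0.277 to 0.931 CPM in Con, 31.0, 340.2 and 18.8 CPM in DSS, 1.19 to 2.44 CPM in UA+DSS and 10.7 to 12.5 CPM in DSS+UA. Clec4e, a receptor for mycobacterial glycolipids, was at 0.103, 0 and 0 CPM in Con and 21.3, 695 and 24.8 CPM in DSS, with DSS 2 far above the rest, as it was in neutrophil markers.

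The other 3 sensors called higher in DSS, named after their values were seen, were Nlrp3, Tmem173 and Clec7a. Nlrp3, an inflammasome sensor, was at 0.388 to 0.963 CPM in Con and 9.28, 243 and 12.7 CPM in DSS. Tmem173, the adaptor STING of cytosolic DNA sensing, rose by a log2 fold change of 1.80 (SE 0.40, edgeR adjusted p = 0.00947), and Clec7a, a receptor for fungal glucans, by 3.09 (SE 0.64, edgeR adjusted p = 0.00782).

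Nlrp6, Aim2 and Ifih1, named after their values were seen, were the 3 genes called lower in DSS. Nlrp6, an inflammasome sensor of the gut epithelium, was at 138, 293 and 222 CPM in Con and 85.9, 52.0 and 106 CPM in DSS (log2 fold change -1.42, SE 0.31, edgeR adjusted p = 0.00899). It was higher than in DSS in both UA+DSS (1.83, edgeR adjusted p = 0.0099) and DSS+UA (1.15, edgeR adjusted p = 0.0478, and 0.123 without DSS 2). Aim2, a sensor of cytosolic DNA, had a log2 fold change of -0.92 (SE 0.23, edgeR adjusted p = 0.0157, and 0.0477 without DSS 2). Ifih1, a sensor of double-stranded RNA like Tlr3, was at 60.8, 147 and 128 CPM in Con and 58.7, 49.2 and 56.7 CPM in DSS (log2 fold change -1.03, SE 0.32, edgeR adjusted p = 0.0354, and 0.0914 without DSS 2). Nod1, a sensor of bacterial peptidoglycan, had a log2 fold change of 0.15 (SE 0.24) and Ddx58, another RNA sensor, one of -0.65 (SE 0.44) in DSS against Con, and neither passed the test.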
